A study of Mus musculus with 4 samples.

Results

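The Ebf transcription factor genes *Ebf1*, *Ebf2*, *Ebf3* and *Ebf4* and the zinc finger genes *Zfp423* and *Zfp521*, whose proteins bind EBF proteins, were followed in RNA sequencing of the mouse frontonasal prominence (FNP), the facial tissue from which the nose and snout form. These 6 genes were taken by symbol from a table of 33708 genes, and each was found in 1 row. Each passed the filter on low values (10 reads or more in either genotype), as did 15377 genes in all. The table compared embryos carrying normal Smchd1 (Smchd1+/+, WT) with embryos homozygous for MommeD43 (Smchd1MommeD43/MommeD43, MD43), a chemically induced missense allele of the chromatin silencing gene *Smchd1*, to find transcripts that the allele changes in this tissue. All embryos were FVB/NJ and were taken at E10.5 with 29 somites. Each genotype had 2 embryos. The WT embryos were labelled 1 female and 1 male and the MD43 embryos 2 males, so that sex was not balanced, and another record of the study names both WT embryos as female, in which case sex and genotype cannot be told apart. Replicate 2 of WT and of MD43 came from the same mother.

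The deposited table gave 1 value per genotype, the mean log2 RPKM (reads scaled to transcript length and library size) of its 2 libraries. No spread between embryos could be computed and no p-value was given to any difference. Errors are counting errors from the recovered reads, the geometric mean of the 2 libraries, and are lower limits because they leave out variation between embryos. The implied depth per library, as the geometric mean of the 2 libraries of a genotype, was 16055882 reads for WT and 22328791 reads for MD43. *Smchd1* itself had a log2 RPKM of 3.31 in WT and 3.30 in MD43, which does not check the labels because the allele changes the protein and not necessarily the transcript.

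EBF proteins are helix-loop-helix factors that bind DNA as dimers at a palindromic site. They were found both as factors of early B cells and as factors of olfactory neurons, and they also act in fat precursors, in mesenchyme and in neurons of the developing brain. *Zfp423* (also Oaz, the Olf-1/EBF associated zinc finger) and *Zfp521* encode large proteins of many zinc fingers that bind EBF proteins and can hold back their activity. ZFP423 also joins SMAD proteins in the response to bone morphogenetic proteins (BMPs), and ZFP521 carries a short motif that recruits the NuRD chromatin complex.

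All 6 genes were detected, with the zinc finger genes far above the Ebf genes. In WT the log2 RPKM was 3.99 for *Zfp423*, 3.87 for *Zfp521*, 1.03 for *Ebf3*, 0.84 for *Ebf4*, 0.23 for *Ebf2* and -1.19 for *Ebf1*. The order was the same in MD43, at 4.01, 3.67, 0.81, 0.60, 0.37 and -0.73. The median of all genes used was 2.35 in WT and 2.34 in MD43, so that both zinc finger genes were above it and all 4 Ebf genes below it. The gap between *Zfp521* and *Ebf3*, the place where the order breaks, was 2.84 in WT and 2.86 in MD43 on the log2 scale. Within the order, the gaps between *Ebf3* and *Ebf4* (0.19 ± 0.12 in WT and 0.21 ± 0.11 in MD43, counting SE) and, in MD43, between *Ebf4* and *Ebf2* (0.23 ± 0.12) were within 1.96 counting errors. The summed RPKM of the Ebf genes was 5.44 in WT and 5.16 in MD43, and that of the zinc finger genes was 30.5 and 28.8, a ratio of zinc finger to Ebf transcripts per length of 5.61 in WT and 5.57 in MD43.

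**Figure D1:**
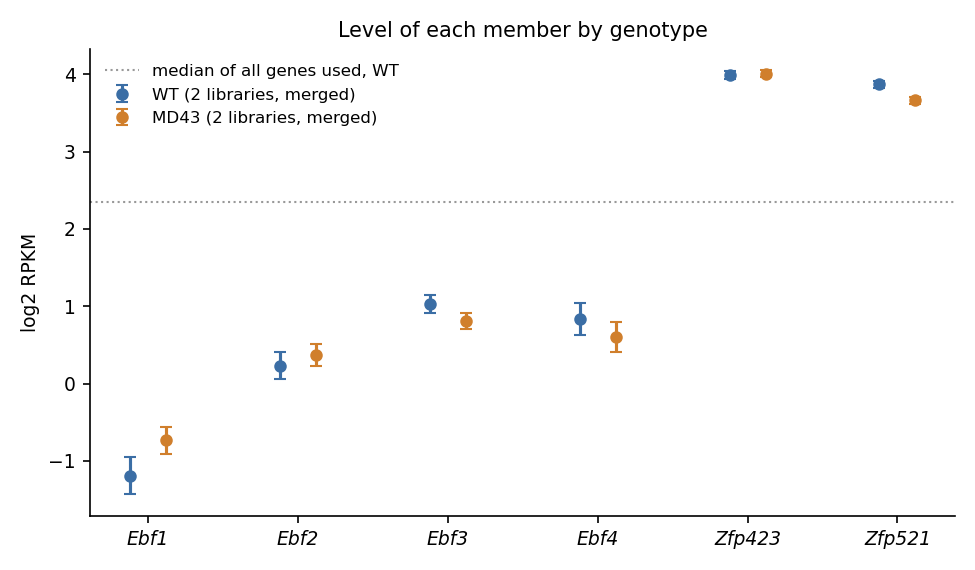
Level of each gene in log2 RPKM (vertical axis) in WT (blue) and MD43 (orange). Each point is the mean of 2 libraries as deposited, bars are 1.96 counting errors and do not include variation between embryos, and the dotted line is the WT median of the genes used, 2.35. The zinc finger genes lie near 4 in both genotypes and the Ebf genes lie between -1.19 and 1.03.

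None of the 6 genes differed 1.5-fold or more between the genotypes, against 10.7% of all genes used and 3.55% of the 11982 genes that had 50 reads or more in WT as well as in MD43. It follows that none reached 2-fold, against 4.11% of all genes used. All 6 genes had 50 reads or more in each genotype, so that 3.55% is the matched share. A count of 0 of 6 is near that share and is not a result about these genes. The log2 fold change (MD43 minus WT) was positive for *Ebf1*, *Ebf2* and *Zfp423* (for *Zfp423* -0.004 after a correction for GC content and length) and negative for *Ebf3*, *Ebf4* and *Zfp521*. Its median over the 6 was -0.09, against 0.0057 over all genes used, of which 51.2% were higher in MD43. The median absolute log2 fold change of all genes used was 0.157, and 4 of the 6 genes were past it.

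**Figure D2:**
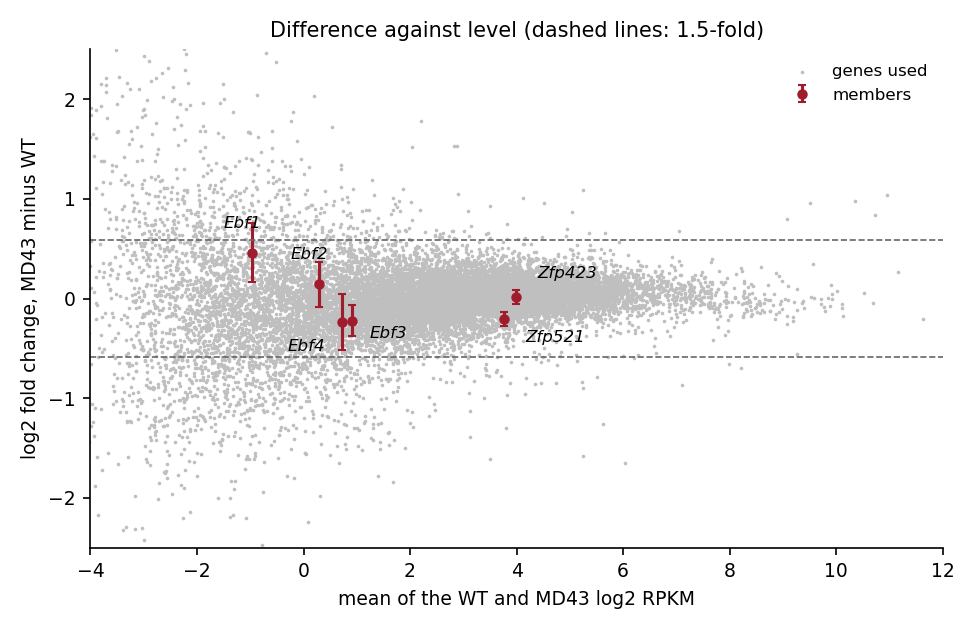
Log2 fold change (MD43 minus WT, vertical axis) against the mean log2 RPKM of both genotypes (horizontal axis) for the genes used (grey) and the Ebf and zinc finger genes (red, bars 1.96 counting errors). Dashed lines mark 1.5-fold, and 122 genes outside the axes are not drawn. All 6 genes lie between the dashed lines, with *Ebf1* at 0.46 on this scale.

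*Ebf1* (ENSMUSG00000057098), the founding member known from B cell commitment, lies at chr11:44617317-45008091 on the plus strand (GRCm38) and has 9.76 kb of exon. It was the lowest of the 6, with 68.5 reads in WT and 131 in MD43. Its log2 RPKM went from -1.19 in WT to -0.73 in MD43, a log2 fold change of 0.46 ± 0.15 (counting SE, 95% counting interval 0.16 to 0.76) or 1.38-fold. Of the genes used, 84.8% had a smaller difference in absolute size. Without a pseudocount this was the largest difference of the 6, but with 1 RPKM added to both values it was 0.16, below that of *Zfp521* (-0.19).

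The WT value of *Ebf1* could be taken apart further. The value fixes the product of the reads of both libraries, 4699, and within an 8-fold difference the only pair of whole numbers with that product was 37 and 127. The libraries of the 2 WT embryos therefore held 37 and 127 *Ebf1* reads, 3.43-fold apart, although which embryo had which is not known. Of 211 WT genes with 50 to 100 reads and a single possible pair, 97.2% had a smaller ratio and 6, *Ebf1* included, were at or above it. Their median log2 ratio was 0.78 and that of *Ebf1* was 1.78. Unequal depth is part of these ratios. In 572 WT genes with 200 to 700 reads and a single possible pair the median log2 ratio was 0.50, and with that taken as the depth ratio the WT embryos differed 2.42-fold in *Ebf1* if the deeper library held more reads and 4.87-fold if it held fewer.

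**Figure D3:**
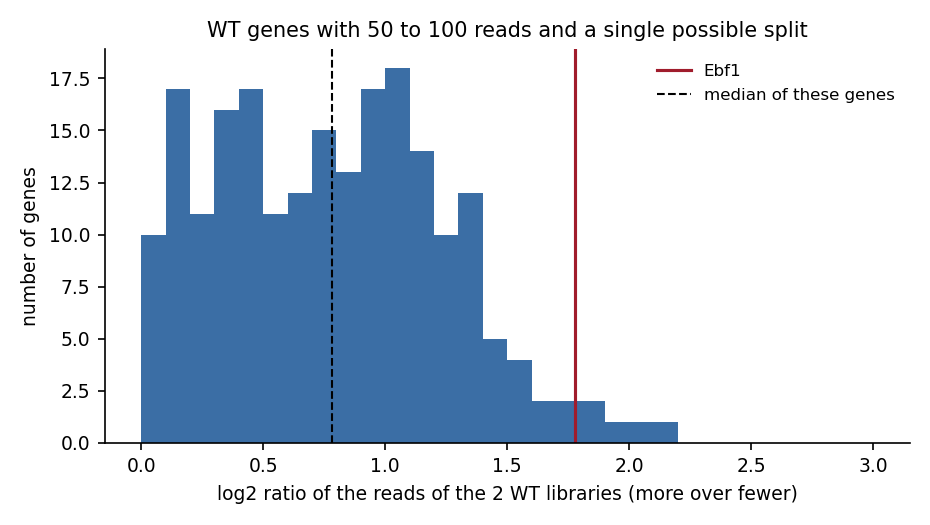
Number of genes (vertical axis) by the log2 ratio of the reads of both WT libraries, more over fewer (horizontal axis), for the 211 WT genes with 50 to 100 reads and a single possible pair of read numbers. The dashed line is their median, 0.78, and the red line is *Ebf1*, at 1.78 in the upper tail. Library depth was not taken out.

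The gap between the WT embryos was thus larger than the difference between the genotypes, although a gap between single libraries varies more than a difference between means. Against the lower WT library alone the log2 fold change of *Ebf1* was 1.10 or 1.60, depending on which library was the deeper, and against the higher one it was -0.18 or -0.68, below zero. The sign of the *Ebf1* value therefore rested on which WT library was used. No counting error was computed for these single-library values, and they take a median over genes as the depth ratio. How far they lie from zero beyond counting error was not tested. The MD43 product, 17200, allowed the pairs 50 and 344, 80 and 215, 86 and 200, or 100 and 172, so that no single pair could be given. The closest to equal levels after the MD43 depth ratio (median log2 ratio 0.61 in 417 genes) was 100 and 172, a gap of 0.17 ± 0.18.

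*Ebf2* (ENSMUSG00000022053), known from fat precursors, olfactory neurons and Cajal-Retzius neurons, lies at chr14:67233292-67430918 on the plus strand. The WT value rested on 130 reads and the MD43 value on 200, and the log2 RPKM was 0.23 and 0.37. The log2 fold change was 0.14 ± 0.11 (counting SE), and its 95% counting interval, -0.08 to 0.37, included zero. The WT product of 17004 allowed 109 and 156, 78 and 218, or 52 and 327 reads. The first of these left a gap of 0.013 between the WT embryos after depth, and a pair as even, 162 and 247, was among the 6 possible in MD43 (gap 0.0024).

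*Ebf3* (ENSMUSG00000010476), which acts in neurons and in muscle and is the gene of a human neurodevelopmental syndrome, lies at chr7:137193673-137314445 on the minus strand. It was the highest of the Ebf genes, with 303 reads in WT and 361 in MD43, and log2 RPKM values of 1.03 and 0.81. The log2 fold change was -0.22 ± 0.080 (counting SE, 95% counting interval -0.38 to -0.07). The product of 91778 in WT allowed 218 and 421 or 109 and 842 reads, and that of 130018 in MD43 allowed 251 and 518 or 259 and 502. Even the closest pairs left the embryos of 1 genotype 0.45 ± 0.12 (WT) and 0.34 ± 0.11 (MD43) apart after depth on the log2 scale. Both gaps were larger than the *Ebf3* difference between the genotypes, but a gap between single libraries varies more than a difference between means. The errors of the gaps leave out the uncertainty of the depth ratio.

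*Ebf4* (ENSMUSG00000053552), the most divergent of the family, lies at chr2:130295169-130370481 on the plus strand and has the shortest exon length of the 6, 3.24 kb. Its reads were 92.9 in WT and 110 in MD43, and its log2 RPKM was 0.84 and 0.60. The log2 fold change was -0.24 ± 0.14 (counting SE), with a 95% counting interval of -0.52 to 0.04 that included zero. In WT the product of 8625 allowed 69 and 125 or 75 and 115 reads, so that the WT embryos were within 2-fold of each other before depth was taken out. In MD43 the product of 12000 allowed 8 pairs, from 100 and 120 to 40 and 300.

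*Zfp423* (ENSMUSG00000045333) lies at chr8:87661810-87959595 on the minus strand. With 1431 WT reads and 2012 MD43 reads, the log2 RPKM was 3.99 and 4.01, and the log2 fold change was 0.016 ± 0.035 (counting SE, 95% counting interval -0.053 to 0.086). Of the genes used, 5.83% had a smaller absolute difference. *Zfp521* (ENSMUSG00000024420), at chr18:13687013-13972787 on the minus strand, had a read number of 1652 in WT and 1993 in MD43 and a log2 RPKM of 3.87 and 3.67. Its log2 fold change was -0.20 ± 0.034 (counting SE, 95% counting interval -0.27 to -0.14), 0.868-fold. The counting error of *Zfp521* was the smallest of the 6, and its difference was -6.03 of these errors, but how far the embryos of a genotype differed in it is not known. Products of such size no longer fix a whole number, so the reads of the single libraries were not recovered for either zinc finger gene.

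The make-up of the Ebf transcripts differed accordingly. *Ebf1* made up 8.04% of the summed RPKM of the Ebf genes in WT and 11.7% in MD43, and *Ebf2* 21.5% and 25.1%. *Ebf3* made up 37.6% and 33.9%, and *Ebf4* 32.8% and 29.4%. The sum itself was 0.08 lower in MD43 on the log2 scale and that of the zinc finger genes 0.09 lower. The *Ebf1* share in WT rests on the split of 37 and 127 reads described above. With the level of the higher WT library in place of the mean it was 12% or 16.2%, depending on which library was the deeper, both above the 11.7% of MD43, and with that of the lower one 5.32% or 3.81%. These shares were added after the data were seen.

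The start regions of 4 of the 6 genes are in the RefSeq table of promoters used here (GRCm38.p6, 250 bases before to 50 after each start). They were searched for the EBF site, whose core is CCCNNGGG and whose longer palindrome is TCCCNNGGGA. Both motifs read the same on either strand, and each match of the longer one contains a match of the core. The core was found in 2 of the 6 start regions of these genes, against 13.7% of 32851 start regions of all genes, and the longer palindrome in 0 of 6, against 0.904% of all. The windows below show regions with and without the core, for *Ebf1*, the lowest of the genes, for *Zfp423*, the highest, and for *Ebf3* and *Ebf4*, whose levels lay close together. Capitals mark a core match, and the strand is that of the gene.
Ebf1, first start, chr11:44617850-44618149 (+), no match: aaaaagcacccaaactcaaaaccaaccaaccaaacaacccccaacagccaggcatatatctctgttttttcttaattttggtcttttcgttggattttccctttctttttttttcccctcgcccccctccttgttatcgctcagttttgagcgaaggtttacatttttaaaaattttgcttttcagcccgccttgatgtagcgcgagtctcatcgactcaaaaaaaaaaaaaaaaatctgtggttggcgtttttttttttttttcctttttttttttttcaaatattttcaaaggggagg
Ebf3, chr7:137314396-137314695 (-), 1 match from 21 bases before the start: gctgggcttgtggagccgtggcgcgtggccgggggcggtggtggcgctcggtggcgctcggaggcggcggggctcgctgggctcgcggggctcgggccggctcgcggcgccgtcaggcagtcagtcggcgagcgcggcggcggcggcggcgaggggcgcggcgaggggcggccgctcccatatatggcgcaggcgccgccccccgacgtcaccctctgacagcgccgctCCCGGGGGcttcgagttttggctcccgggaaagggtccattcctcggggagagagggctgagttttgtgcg
Ebf4, chr2:130295689-130295988 (+), no match: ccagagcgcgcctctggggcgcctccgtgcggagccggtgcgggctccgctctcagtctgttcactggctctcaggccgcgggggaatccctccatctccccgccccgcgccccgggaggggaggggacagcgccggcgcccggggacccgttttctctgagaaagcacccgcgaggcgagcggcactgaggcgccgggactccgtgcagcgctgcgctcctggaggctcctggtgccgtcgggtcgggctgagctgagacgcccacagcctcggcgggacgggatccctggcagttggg
Zfp423, second start, chr8:87804390-87804689 (-), 1 match from 28 bases before the start: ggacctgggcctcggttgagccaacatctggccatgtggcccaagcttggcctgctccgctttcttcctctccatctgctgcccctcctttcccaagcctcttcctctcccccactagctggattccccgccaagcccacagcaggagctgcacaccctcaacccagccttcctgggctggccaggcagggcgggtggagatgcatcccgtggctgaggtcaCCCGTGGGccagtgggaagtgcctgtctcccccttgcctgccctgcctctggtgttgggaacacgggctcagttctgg

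The window at the first start of *Ebf1* was 36.7% G and C, with long runs of A and T, and that at its second start, not printed, was 53.0%. Those of *Ebf3* and *Ebf4* were 77.0% and 74.3%. *Zfp423* had the core only at its second start. The window at its first start, not printed, had no match and was 65.7% G and C. *Ebf3*, with the core, and *Ebf4*, without it, had log2 fold changes of -0.22 and -0.24. A match is a run of letters and no evidence of binding, and its absence concerns these windows alone.

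Genes next to the 6 genes were examined for transcripts that overlap them or lie within 100 kb. *Gm10860*, annotated antisense to the end of *Ebf2*, had 11.0 reads in WT and 21.8 in MD43, a log2 fold change of 0.52 ± 0.38 (counting SE). *Gm45278*, antisense within *Ebf3*, had 29.9 and 39.8 reads and a log2 fold change of -0.06 ± 0.25. The libraries were stranded, but whether strand was used in counting is not given in the sources used here, so reads of these transcripts and of the Ebf genes may not be fully separated. The other overlapping transcripts had no more than 1 read by this measure or were not matched to the annotation. The 6 neighbours of *Ebf4* that were used (*Nop56*, *Idh3b*, *Cpxm1*, *Pced1a*, *Vps16* and *Ptpra*) had log2 fold changes between -0.14 and 0.06, and *Mgmt* and *9430038I01Rik* beside *Ebf3* had -0.02 and -0.04. *Zfp423* and *Zfp521* had no used gene within 100 kb.

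By the distance over both genotype values, the genes nearest to *Ebf1* were *Gm34655* and *L1td1* (0.025 and 0.029 in log2 RPKM), and 13 genes lay within 0.1. *Zfp423* had *Fbxo38* and *Chmp1b* at 0.0027 with 198 genes within 0.1, and *Zfp521* had *Prrx2*, a mesenchyme homeobox gene, at 0.0056 with 67 genes within 0.1. *Ebf2* had *Abca7* and *Tent5c*, *Ebf3* had *4930581F22Rik* and *Ulk3*, and *Ebf4* had *Zfp398* and *AC132253.6* as their nearest, at 0.014 to 0.033. Likeness over 2 values places a gene by its level and its difference and says nothing further.

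The pathways that these proteins take part in were then read from fixed lists, each described by its counts and median. Over all genes used, 4.24% were at least 1.5-fold higher in MD43 and 6.43% at least 1.5-fold lower. Of the regulators of the olfactory lineage, in which EBF proteins act late, all 10 were used, 6 were higher and 4 lower, none was past 1.5-fold, and the median log2 fold change was 0.08. *Lhx2*, needed for olfactory progenitors, had log2 RPKM values of 5.21 in WT and 5.70 in MD43, a difference of 0.49 ± 0.025. *Neurod1* was 0.38 ± 0.12 higher, while *Nhlh2* was 0.49 ± 0.10 lower and *Fezf1* 0.33 ± 0.053 lower. *Neurog1*, a proneural gene of this lineage, differed by 0.12 ± 0.10.

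The products of mature olfactory neurons, classical EBF targets, were largely below the filter. Of 11 listed genes 10 were in the table, and 6 of these had too few reads, so that 4 were used. *Omp*, the marker of mature olfactory neurons, had 0.90 reads in WT, the value of a gene without reads, and 3.29 in MD43. Of those used, *Gap43*, the growth cone protein of young neurons in general, was more than 1.5-fold lower in MD43 (log2 RPKM 3.99 and 3.25, difference -0.74 ± 0.077). *Adcy3*, the olfactory adenylyl cyclase, had a difference of 0.035 ± 0.094 and *Gnal*, the olfactory G protein subunit, one of -0.32 ± 0.11. The median of the 4 was -0.14, and it was 0.10 without the filter on low values. The genes added without the filter had no more than 3.74 reads in either genotype. A gene without reads in both genotypes takes a log2 fold change of -0.476 from depth alone. The 0.10 therefore rests in part on genes with hardly any reads.

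Genes of Cajal-Retzius cells, early neurons of the forebrain surface in which *Ebf2* and *Ebf3* are known to be active, were lower in MD43. All 8 listed genes were used and all 8 were lower. Of these, 5 were at least 2-fold lower, against 2.47% of all genes used, and the median log2 fold change was -1.03. The median and part of this count rested on *Lhx1* and *Calb2*, named after their values were seen. *Lhx1* (49.6 WT and 33.8 MD43 reads, -1.03 ± 0.23) and *Calb2* (29.6 and 20.1 reads, -1.03 ± 0.29) were within counting error of the 2-fold limit. Most genes of the list lay near or below 1 RPKM, and with 1 RPKM added to both values the median was -0.40. *Tbr1*, a transcription factor of early cortical neurons, had log2 RPKM values of 0.31 in WT and -1.28 in MD43, a difference of -1.60 ± 0.17. *Lhx5* differed by -1.12 ± 0.069 and *Trp73* by -1.07 ± 0.16. *Reln*, the secreted guidance protein of these cells, differed by -0.44 ± 0.11, and its products allowed a single pair in each genotype, 141 and 241 reads in WT and 157 and 227 in MD43. The smallest differences of the list, named after their values were seen, were those of *Ndnf* (-0.12 ± 0.10) and *Cacna2d2* (-0.06 ± 0.11). The summed RPKM of the list was 19.8 in WT and 10.2 in MD43, of which *Lhx5* alone gave 12.9 and 5.90. Without *Lhx5*, a sum added after the data were seen, it was 6.89 and 4.25. *Ebf3*, at -0.22, lay within the range of the list and below its median in size, and *Ebf2*, at 0.14, lay outside it. In pieces of tissue, fewer cells of a type and less RNA per cell cannot be told apart.

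Markers of the diencephalon and optic vesicle, brain tissue that lies beside the FNP, were also lower. Of 13 listed genes 12 were used, 12 were lower, 6 of them at least 1.5-fold and 5 at least 2-fold, with a median of -0.59 that was -0.26 with 1 RPKM added to both values. *Dbx1* differed by -1.40 ± 0.15, *Nkx2-1* by -0.45 ± 0.057, *Tcf7l2* by -0.38 ± 0.057 and *Lhx9* by -0.51 ± 0.17. Their summed RPKM was 43.6 in WT and 31.6 in MD43. *Lhx1* and *Lhx5* of the Cajal-Retzius list are also known from the diencephalon. The part of brain tissue in the Cajal-Retzius values, and in those of *Ebf2* and *Ebf3*, was not tested.

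**Figure D4:**
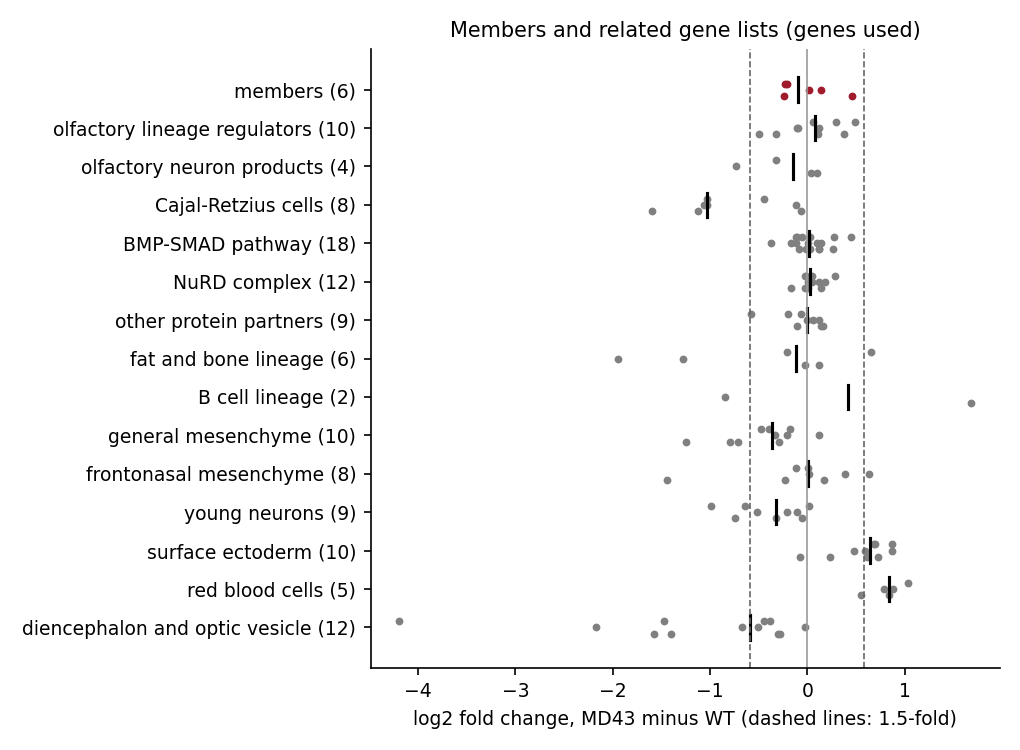
Log2 fold change (MD43 minus WT, horizontal axis) of the Ebf and zinc finger genes (top row, red) and of the used genes of each list (grey, number in parentheses), with list medians as black bars and 1.5-fold as dashed lines. The Ebf and zinc finger genes lie between -0.24 and 0.46, the Cajal-Retzius genes between -1.60 and -0.06, and the surface ectoderm and red blood cell lists have medians of 0.65 and 0.84.

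Of the protein partners, the BMP-SMAD list, through which ZFP423 acts, had 18 of 18 genes used, 10 higher and 8 lower, none past 1.5-fold, and a median of 0.01. *Id2* and *Id4*, target genes of this pathway, differed in opposite directions (-0.37 ± 0.036 and 0.27 ± 0.026), *Bmp7* was 0.28 ± 0.048 higher and *Msx1* 0.17 ± 0.031 lower. The NuRD complex, which ZFP521 recruits, had 12 genes used and none past 1.5-fold, with a median of 0.03. Its largest subunit differences were *Gatad2a* (0.29 ± 0.029), *Chd4* (0.18 ± 0.012), *Mbd2* (-0.17 ± 0.057) and *Mta2* (0.14 ± 0.020). Of the 9 other partners, among them *Parp1* (0.17 ± 0.014), *Rxra* (0.14 ± 0.036) and *Rbpj* (-0.19 ± 0.049), none was past 1.5-fold, and *Tet2* was nearest (-0.57 ± 0.062). As for *Zfp423* and *Zfp521* themselves, the count past 1.5-fold was 0 of the 39 partner genes used. The share was 10.7% of all genes used and 3.55% of those with 50 reads or more in each genotype. A count of 0 of 39 is near the latter share and is not a result about the partners.

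Many genes of the other lineages of EBF proteins were below the filter. Of the fat and bone list 6 of 10 genes were used, 2 were lower by 2-fold or more, 1 was higher by 1.5-fold or more, and the median was -0.12. The 3 past 1.5-fold, named after their values were seen, had few reads. They were *Cebpb* (27.9 WT reads and 10.1 MD43 reads, -1.94 ± 0.37), *Runx2* (13.9 and 7.94 reads, -1.28 ± 0.45) and *Sp7* (5.48 and 12 reads, 0.66 ± 0.53). With over 100 reads in each genotype, *Prdm16* differed by 0.12 ± 0.044 and *Cebpd* by -0.21 ± 0.12. *Pparg*, the main fat cell regulator, was at 1.73 WT reads and 3.15 MD43 reads, and *Fabp4* was at the value of a gene without reads. Of the B cell list 2 of 8 were used. *Pax5*, named after its value was seen, was lower by 1.5-fold or more (44.5 WT reads and 34.4 MD43 reads). *Cd79a*, a known EBF1 target, had 0.95 and 1.73 reads.

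Lists of tissue markers were read in the same way. The frontonasal mesenchyme list, with *Alx4* at a log2 RPKM of 4.09 in both genotypes, had 8 of 8 genes used and a median of 0.01, with *Pax7* 0.39 ± 0.056 higher, *Tfap2a* 0.23 ± 0.072 lower and *Foxd1* 1.44 ± 0.092 lower. General mesenchyme genes, among which *Zfp423* and *Zfp521* are broadly active, had 9 of 10 lower, 3 at least 1.5-fold, and a median of -0.36, led by *Col1a1* (-1.25 ± 0.079), *Twist2* (-0.71 ± 0.16), *Col3a1* (-0.48 ± 0.027) and *Twist1* (-0.39 ± 0.047). Genes of young neurons had 8 of 9 lower, 3 at least 1.5-fold, and a median of -0.32, with *Nefl* at -0.74 ± 0.13, *Ina* at -0.64 ± 0.096, *Nefm* at -0.52 ± 0.11 and *Stmn2* at -0.32 ± 0.058. *Tubb3*, the highest of the list and named after its value was seen, differed by 0.021 ± 0.028. The summed RPKM of the list was 104 in WT and 100 in MD43, of which *Tubb3* gave 77.8 and 79.0. Surface ectoderm genes had 9 of 10 higher and 7 at least 1.5-fold higher, with a median of 0.65. Red blood cell genes had 5 of 5 higher and a median of 0.84, with *Hbb-bh1* at 1.04 ± 0.010. The part of tissue make-up in the differences of the 6 genes was not tested.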

How the data were processed

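Libraries were stranded poly(A) mRNA preparations from 100 ng of total RNA of snap-frozen FNP. Per the study's methods, the authors trimmed reads with Trim Galore 0.4.4, mapped them with HISAT2 2.0.5 to GRCm38.p6 and quantified them in SeqMonk. The deposited table holds log2 RPKM values, 1 column per genotype, in which the authors merged 2 libraries each. Its columns of FDR, fold change and mean hold the authors' own comparison and were not used.

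The table was joined to GENCODE M21 on symbol and coordinates (33101 of 33708 rows). Adding the log2 exon length and subtracting the constant of genes without reads gave the product of the reads of both libraries, with 0.9 standing for a library without reads. Of 8184 WT and 7526 MD43 products between 100 and 250000, 99.8% and 99.9% were within 0.2 of a whole number. On simulated libraries 100.0% of products were recovered. Whole-number pairs within 8-fold were listed for products of members. Counting errors used the geometric-mean reads, and over all possible pairs they were 0.162 to 0.173 for *Ebf1*, 0.116 to 0.139 for *Ebf2*, 0.082 to 0.092 for *Ebf3* and 0.145 to 0.163 for *Ebf4*.

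The members and lists were chosen with earlier results of these data known. Lists were described by up to 4 genes with the largest differences among those with at least 50 reads in each genotype, plus genes that the background needed, except that some genes are not reported here, and no test was run because there was 1 value per genotype. Alternatives were pseudocounts of 0.1 and 1 RPKM, centring, a correction for GC content and length, other filters and a 2-fold limit. Python 3.11.15, numpy 2.4.6, pandas 2.3.3 and matplotlib 3.10.9 were used.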

Additional observations from a re-analysis of the deposited data

How the results depend on the processing

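No member reached the fold limit under any filter or at 2-fold, but these settings could not have changed that count. Every member had 68.5 reads or more in each genotype, above the highest filter of 50 reads. A gene that is not past 1.5-fold is also not past 2-fold. *Ebf2*, *Ebf3*, *Ebf4* and *Zfp521* kept their direction under centring and the correction for GC content and length. They also kept it under both pseudocounts, which cannot reverse a direction. That correction moved *Zfp423* from 0.016 to -0.004, within its counting error. *Ebf1* came to 0.545 after the same correction, below the 1.5-fold limit of 0.585. It came to 0.156 when 1 RPKM was added to both values, an amount above its RPKM. Taken against single WT libraries, an alternative chosen after seeing the data, it ranged from -0.681 to 1.602. Alternative list medians were set against a limit, 1.96 times the median counting error of the list's genes divided by the square root of their number. This limit is not the counting error of the median itself. Of 75 alternative list medians 62 moved by less than the limit, 13 by more, and 3 changed sign. Among the 13 were the medians of the Cajal-Retzius (-0.40), diencephalon (-0.26) and young neuron (-0.21) lists with 1 RPKM added, and of the BMP-SMAD (0.057) and NuRD (0.055) lists after the correction for GC content and length. Depth limits *Ebf1* and *Ebf4* most, with 68.5 and 92.9 WT reads. No paired analysis was possible because both libraries of a genotype were merged into 1 value, and for the same reason no replicate was left out by its number.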
